A study of Mus musculus with 13 samples.

Results

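The Wnt ligands and Wnt response genes described here are 9 genes, namely the ligands Wnt9a, Wnt4, Wnt5a, Wnt5b and Wnt11, the feedback inhibitors Axin2 and Nkd1, and the transcription factors Lef1 and Tcf7. Their members were taken by gene symbol, as every probe set of the array whose annotation names exactly 1 of these genes. This gave 19 probe sets of 8 genes, of 45037 probe sets tested, while Tcf7 had no probe set so named. Wnt5a and Nkd1 had 4 probe sets each, Wnt9a, Wnt4, Wnt5b, Axin2 and Lef1 had 2 each, and Wnt11 had 1. RNA came from presumptive intervertebral disc (IVD) and adjacent presumptive vertebrae, laser-captured from the lumbar region of E13.5 mouse embryos. Control embryos (Cre-;Tgfbr2lox/wt) had no Cre but carried 1 floxed allele of Tgfbr2, the type II receptor for TGF-β, and gave 3 IVD and 3 vertebrae arrays from the same mice. Mutant embryos (Cre+;Tgfbr2lox/lox) expressed Cre from the Col2a promoter, which removes exon 2 of Tgfbr2 in Col2a expressing sclerotome, and gave 4 IVD and 3 vertebrae arrays. The labels of the mutant vertebrae spell the genotype Cre+;Tgrbr2lox.lox. Captured IVD was mainly presumptive annulus fibrosus with a little notochord.

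Wnt proteins are secreted, lipid-modified ligands that bind Frizzled receptors. In the canonical pathway they act with the co-receptors Lrp5 and Lrp6, and β-catenin then accumulates and activates target genes together with Tcf and Lef factors. Axin2 and Nkd1 are targets that feed back to dampen the signal, Axin2 as a scaffold of the complex that degrades β-catenin and Nkd1 as a binding partner of Dishevelled. In the developing skeleton, Wnt9a and Wnt4 are known from forming synovial joints, where canonical signaling opposes cartilage formation. Wnt5a, Wnt5b and Wnt11 are mostly known as non-canonical ligands that act on cell polarity, movement and chondrocyte maturation.

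The sequences before the transcription start are shown for the feedback gene Axin2, for Lef1, and for the 3 ligands whose windows lie at the start of the RefSeq gene record, since these are the genes whose values are compared below. They are read 5′ to 3′ on the + strand of GRCm38 from RefSeq, as the 100 bases that end just before the gene record starts (30 bases before an internal start for Axin2, whose record begins further upstream). They lie at chr11:108920319-108920348 for Axin2, chr3:131110197-131110296 for Lef1, chr11:59306749-59306848 for Wnt9a, chr4:137277535-137277634 for Wnt4 and chr7:98834984-98835083 for Wnt11. Capitals mark a match to the TCF/LEF-type hexamers CTTTGA or CTTTGT on either strand.
Axin2: cctttaaggcgggcggcgcgcgggccggcc
Lef1: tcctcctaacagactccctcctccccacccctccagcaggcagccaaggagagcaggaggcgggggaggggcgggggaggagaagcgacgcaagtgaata
Wnt9a: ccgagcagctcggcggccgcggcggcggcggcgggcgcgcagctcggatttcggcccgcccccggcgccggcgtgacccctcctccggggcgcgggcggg
Wnt4: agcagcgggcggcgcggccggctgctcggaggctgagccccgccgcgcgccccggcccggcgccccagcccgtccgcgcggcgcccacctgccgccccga
Wnt11: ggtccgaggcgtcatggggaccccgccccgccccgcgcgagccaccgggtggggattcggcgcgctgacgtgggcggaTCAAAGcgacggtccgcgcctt

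RefSeq windows of 300 bases (250 before and 50 after a start) were found for 8 of the 9 genes, 15 windows in all. These 8 genes included Tcf7, and Wnt5a had none. A hexamer match was found in 3 of the 15 windows, 1 each of Lef1, Wnt5b and Wnt11, and in 31.2% of all 32851 windows. In Lef1 and Wnt5b the window with a match belonged to a start inside the gene. The stretches shown are rich in G and C, from 66.0% in Lef1 to 88.0% in Wnt4.

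Deposited values are log2 signals from which the median of each probe set across 13 arrays had been taken, so they give differences between arrays and no level. The number of arrays limits the precision. Some arrays carried transcripts of neighbouring tissue: the mean of 8 liver genes was between 3.0 and 6.05 in control IVD 1, control vertebrae 1, mutant IVD 3 and mutant IVD 4 and at most 0.21 in the others, and a mean over 12 neuronal genes reached 3.51 in mutant IVD 3 and 2.85 in control vertebrae 3. The mean of 3 Y-linked genes lay between 1.55 and 2.35 in 5 of the 7 mutant arrays and at or below -0.01 in mutant IVD 3, mutant vertebrae 3 and all 6 control arrays, so sex and genotype cannot be fully told apart. Whether any of these had a part in the results was not tested, except where a value is given below. Of the 3 Tgfbr2 probe sets, the one with the widest range, 1426397_at, lay between -0.52 and 0.99 in control arrays, between 0.00 and 1.31 in mutant IVD and between -2.10 and -0.17 in mutant vertebrae. Where these probes lie relative to the deleted exon is not given in the sources used here, so they do not check the labels.

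**Figure D1:**
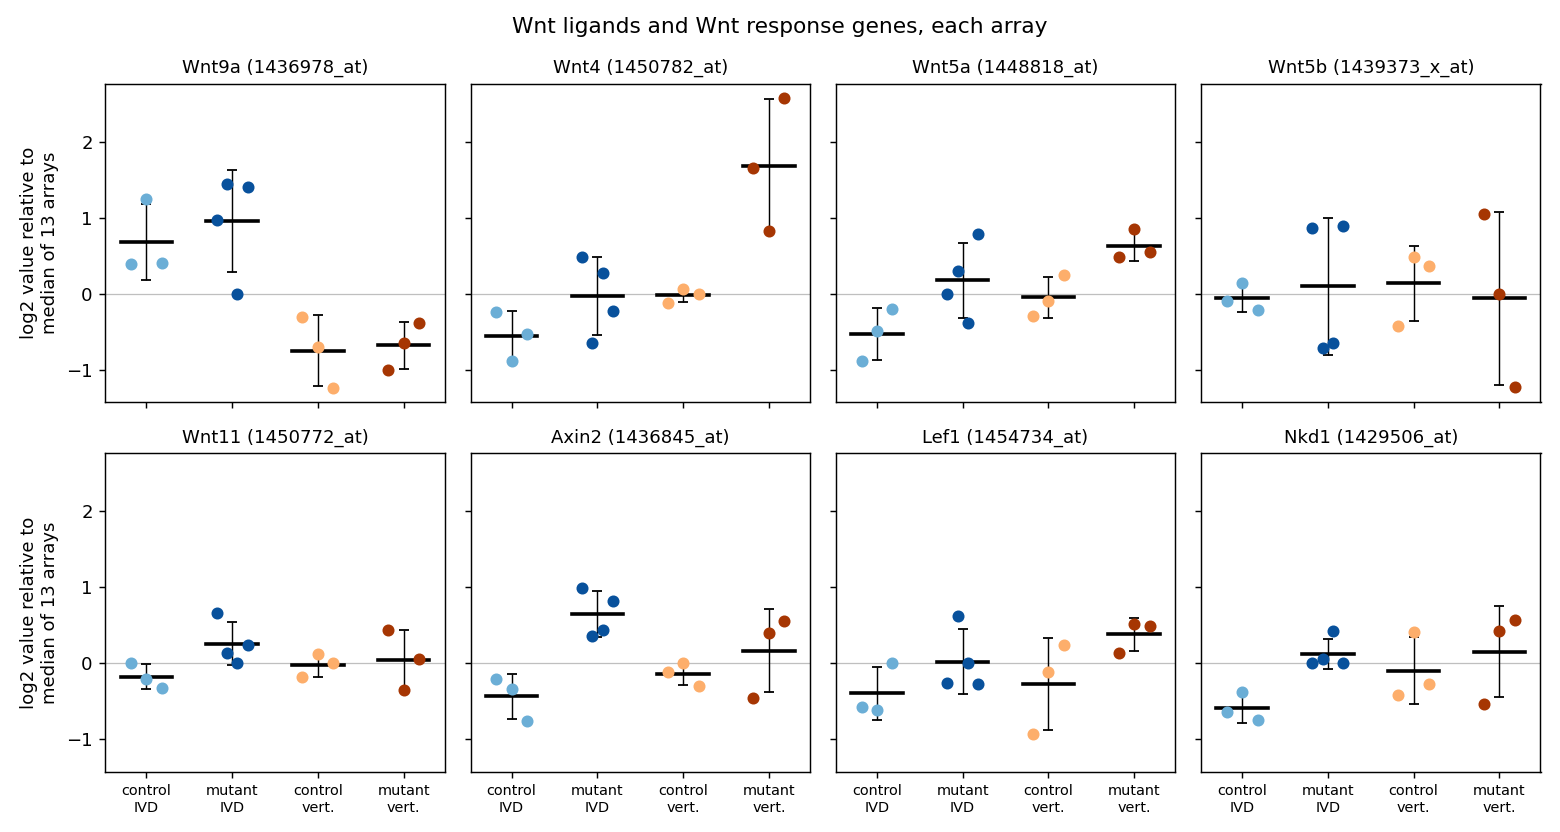
Log2 value relative to the median of 13 arrays (y axis) for the probe set of each gene that varied most, in control IVD, mutant IVD, control vertebrae and mutant vertebrae (x axis). Points are arrays, bars are group means and whiskers are 1 SD. Wnt9a separated IVD from vertebrae in both genotypes, Wnt4 was highest in the 3 mutant vertebrae arrays (0.82 to 2.57), and Axin2 in mutant IVD (0.36 to 0.99) lay above all 6 control arrays.

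To ask how the ligands and response genes differed between presumptive IVD and vertebrae, the tissues were compared in control embryos. Of the ligands, only Wnt9a had a probe set whose control IVD values all lay above the control vertebrae values. This held for 1 of its 2 probe sets. Its probe set 1436978_at had values of 0.39, 1.25 and 0.40 in the 3 control IVD arrays and of -0.31, -0.70 and -1.24 in the 3 control vertebrae arrays. The groups did not overlap, with means of 0.68 ± 0.49 in IVD and -0.75 ± 0.46 in vertebrae (SD, n = 3 each). The log2 difference was 1.43 (SE 0.39, 95% interval 0.58 to 2.28), which did not pass limma's test after adjustment over all probe sets (adjusted p = 1). The study lists this probe set among its IVD enriched genes from the same arrays, so its direction here is not independent evidence. In captured tissue, more cells of a type and more RNA per cell cannot be told apart.

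Wnt9a had the same pattern in the mutant. Its values were 0.97, 1.44, 0.00 and 1.40 in the mutant IVD arrays and -1.01, -0.65 and -0.38 in the mutant vertebrae arrays. The lowest IVD value, in mutant IVD 3, was still above every vertebrae value, and all 7 IVD arrays lay above all 6 vertebrae arrays. Wnt9a was the only one of the 19 probe sets to be separated in this way, against 0.338% of all probe sets. The mutant difference was 1.64 (SE 0.36, limma adjusted p = 0.22). Averaged over both genotypes the difference was 1.53 (SE 0.27, 95% interval 0.95 to 2.12, limma adjusted p = 0.063), a comparison added after the values were seen. Without mutant IVD 3, both passed, at 1.95 in the mutant (limma adjusted p = 0.027) and 1.69 on average (limma adjusted p = 0.0057). That array had the highest neuronal mean and also the lowest Wnt9a value of the IVD arrays. When any other array was left out, neither passed. The limma adjusted p was then 0.25 to 0.45 in the mutant and 0.075 to 0.18 on average. The mutant difference also passed with the neuronal mean as a covariate, at 1.98 (limma adjusted p = 0.020). The calls over all 45037 probe sets were also more numerous under these settings, in the mutant from 7 to 177 without mutant IVD 3 and to 88 with the covariate, and on average from 47 to 350 without mutant IVD 3.

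No effect of the Tgfbr2 deletion on Wnt9a was detected in either tissue. The genotype difference was 0.27 in IVD (SE 0.36, 95% interval -0.52 to 1.07) and 0.07 in vertebrae (SE 0.39, 95% interval -0.78 to 0.92). Its tissue difference changed by 0.20 between genotypes, with a 95% interval of -0.96 to 1.37, so a change of about 1 in either direction cannot be told from no change with these arrays. The second Wnt9a probe set, 1425889_at, varied little, from -0.15 to 0.36 over all arrays, and did not follow the first (Pearson r = -0.30 over 13 arrays). Its tissue difference was -0.02 in control (SE 0.16). Averaging both probe sets gave a control difference of 0.71 and a mutant difference of 0.74.

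Within a tissue, how Wnt9a went with the matrix genes of the captures turned on mutant IVD 3. With the mean of 10 fibrous matrix genes, such as Fmod and Col6a1, Wnt9a had r = 0.61 over the 7 IVD arrays, 0.08 without mutant IVD 3, and 0.26 over the 6 vertebrae arrays. With the mean of 10 cartilage genes, such as Col2a1 and Acan, it had r = -0.31 over the IVD arrays, 0.06 without mutant IVD 3, and 0.36 over the vertebrae arrays. These correlations are descriptions, since the arrays share tissues and mice. In mutant IVD 3, which had the lowest Wnt9a value among IVD arrays, the fibrous mean was also the lowest of all arrays at -1.44, and its cartilage mean of 0.03 was above that of control vertebrae 3 at -0.09, so neither list separated all IVD from all vertebrae arrays as Wnt9a did. The control arrays followed their tissue labels in these lists, where the fibrous mean was 0.81 to 1.75 in IVD and -0.76 to 0.07 in vertebrae. The 3 genes whose probe sets were most like Wnt9a across the arrays were Lpar1 (r = 0.971), a lysophosphatidic acid receptor, Aff3 (r = 0.962) and Rhoq (r = 0.955), a small GTPase.

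**Figure D2:**
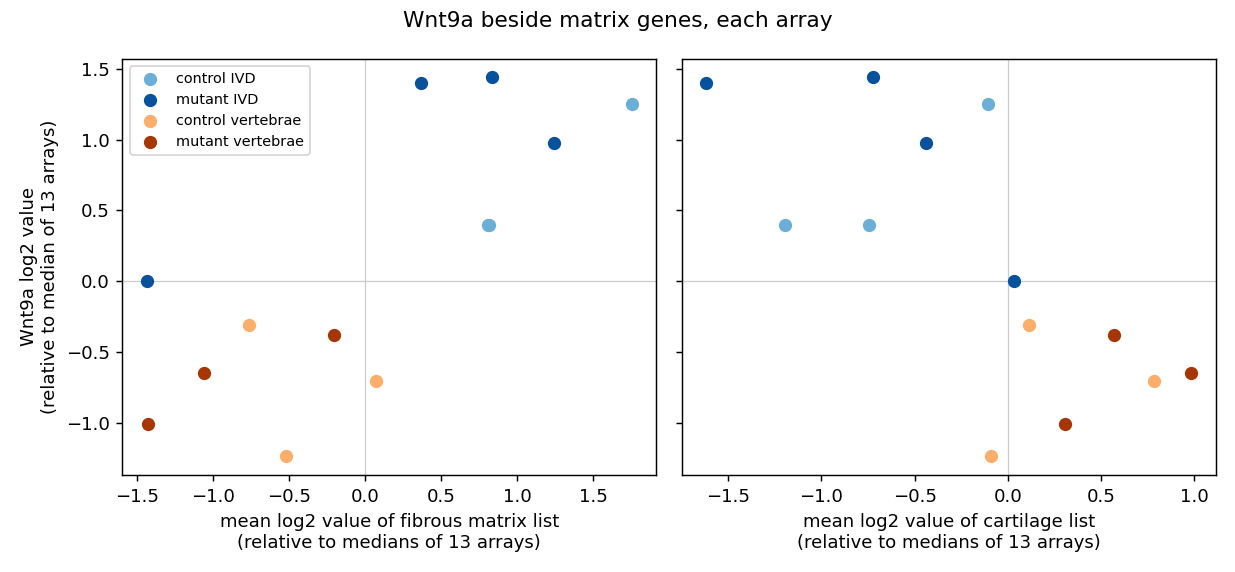
Wnt9a log2 value of each array (y axis) against the mean log2 value of 10 fibrous matrix genes (left, x axis) and of 10 cartilage genes (right, x axis), all relative to medians of 13 arrays. Points are arrays coloured by group. IVD arrays lie above vertebrae arrays in Wnt9a. With the fibrous mean r was 0.61 over the 7 IVD arrays plotted, 0.08 without mutant IVD 3 and 0.26 over the 6 vertebrae arrays, and mutant IVD 3 is the IVD array at 0.00 with the lowest fibrous mean.

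The other ligands and the response genes did not share the Wnt9a pattern in control tissue. Of the 19 probe sets, 15 had lower means in control IVD than in control vertebrae, with a median difference of -0.13 against -0.02 over all probe sets. Besides Wnt9a, the groups did not overlap for Wnt4 1450782_at and Lef1 1421299_a_at, which were both lower in IVD. Such separation was found for 3 of 19 probe sets, and 7.44% of all probe sets had it. Lef1 1421299_a_at was -0.51, -0.40 and -0.32 in control IVD and 0.08, 0.15 and -0.14 in control vertebrae, a difference of -0.44 (SE 0.25, 95% interval -0.98 to 0.11). Axin2 and Nkd1 had differences of -0.30 (SE 0.27) and -0.49 (SE 0.30), and their groups overlapped. The means of these response genes were thus lower, and not higher, in the control tissue where Wnt9a was higher. Their 95% intervals included 0 in this fit, and the 12 other response genes described below did not share this direction as a list. Only Wnt9a had an unadjusted p under 0.05 (1 of 19 probe sets, or 5.26%, against 2.45% of all probe sets), and limma called no member and 0% of all probe sets at an adjusted p under 0.05. These counts treat the arrays as unpaired, although control IVD and vertebrae of a number came from the same mice. With the replicate number as a block in the control arrays, 5 of 19 probe sets had an unadjusted p under 0.05, Wnt9a higher and 1 each of Wnt4, Wnt5a, Lef1 and Nkd1 lower in IVD, against 10.8% of all probe sets with the random and 11.5% with the fixed replicate block. At an adjusted p under 0.05 no member was called with either block, against 0.0933% and 0.0711% of all probe sets. Axin2 1436845_at and Nkd1 1429506_at were lower in IVD in all 3 control pairs.

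The next comparison asked what deletion of Tgfbr2 did to these genes in the IVD. The response gene Axin2 was higher in every mutant IVD array than in any control array. Its probe set 1436845_at had values of -0.21, -0.33 and -0.77 in control IVD and of 0.99, 0.36, 0.43 and 0.82 in mutant IVD. The group means were -0.44 ± 0.29 (SD, n = 3) and 0.65 ± 0.30 (SD, n = 4). The difference was 1.09 on the log2 scale (SE 0.26, 95% interval 0.53 to 1.65) and did not pass limma's test (adjusted p = 1). The study lists this probe set among the genes changed in mutant IVD from the same arrays. It stayed between 0.93 and 1.20 when any 1 array of the comparison was left out. Mutant IVD 3, with the Y-linked mean of the control arrays, had 0.43, where the highest control value was 0.00. Fitting the Y-linked mean alongside gave a difference of 1.11. That fit rests on mutant IVD 3 and mutant vertebrae 3, the only mutant arrays with a Y-linked mean like the controls, so it cannot separate sex from genotype. Mutant IVD 3 also had the highest neuronal mean. Over the 13 arrays Axin2 had r = 0.55 with the Y-linked mean.

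Nkd1 and Lef1 had the same direction. Nkd1 1429506_at was -0.64, -0.37 and -0.75 in control IVD and 0.00, 0.06, 0.42 and 0.00 in mutant IVD. The groups did not overlap and differed by 0.71 (SE 0.28, 95% interval 0.11 to 1.31, limma adjusted p = 1). Lef1 1421299_a_at was 0.44, -0.18, 0.02 and 0.50 in mutant IVD, above the 3 control IVD values given above, and differed by 0.61 (SE 0.23, 95% interval 0.10 to 1.12, limma adjusted p = 1). The Lef1 probe set that varied most, 1454734_at, was -0.58, -0.62 and 0.00 in control IVD and -0.26, 0.63, 0.00 and -0.27 in mutant IVD, a difference of 0.42 (SE 0.30) with overlapping groups.

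Separation of mutant from control IVD was found for Axin2, Lef1 and Nkd1 only, 3 of 19 probe sets, all higher in the mutant, against 4.61% of all probe sets. These are 3 of the 4 genes named as Wnt response, the fourth being Tcf7, which had no probe set annotated to it alone. In each only 1 probe set separated, of 2 for Axin2, 2 for Lef1 and 4 for Nkd1. The Lef1 probe set that did so, 1421299_a_at, had r = 0.12 with 1454734_at. Over the 13 arrays Axin2 and Nkd1 had r = 0.71 with each other and Lef1 1454734_at had r = 0.50 with Nkd1 and 0.20 with Axin2. The 3 genes most like Axin2 were the transcription factors Zic1 (r = 0.910) and Hoxc10 (r = 0.909), and Nhsl2 (r = 0.903).

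The probe sets of 1 gene did not all move together. The second Axin2 probe set, 1421341_at, stayed between -0.18 and 0.13 in all arrays, with a mutant difference in IVD of 0.06 (SE 0.13). The other 3 Nkd1 probe sets had mutant differences in IVD of -0.22 (SE 0.23), -0.07 (SE 0.16) and 0.22 (SE 0.15). On gene means the mutant difference in IVD was 0.57 for Axin2, 0.51 for Lef1, 0.16 for Nkd1 and 0.32 for Wnt5a. Since the values hold no level, whether the flat probe sets detected a transcript is unknown.

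Among the ligands, Wnt5a had higher means in mutant IVD for 2 of its 4 probe sets. Wnt5a 1448818_at was -0.89, -0.49 and -0.20 in control IVD and 0.00, 0.30, -0.39 and 0.79 in mutant IVD, a difference of 0.70 (SE 0.27, 95% interval 0.12 to 1.29, limma adjusted p = 1). Wnt5a 1456976_at differed by 0.63 (SE 0.24, 95% interval 0.12 to 1.15, limma adjusted p = 1), while the remaining 2 differed by 0.06 (SE 0.29) and -0.13 (SE 0.34). In both of the former, 1 array of each group lay within the range of the other.

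Wnt11 1450772_at was 0.00, -0.21 and -0.33 in control IVD and 0.66, 0.14, 0.00 and 0.24 in mutant IVD, a difference of 0.44 (SE 0.21, 95% interval -0.02 to 0.90). Wnt4 1450782_at differed by 0.52 (SE 0.37) with overlapping groups. Wnt5b 1439373_x_at had the largest spread of the ligands in mutant IVD, with values of 0.86, -0.72, -0.65 and 0.89 against -0.10, 0.14 and -0.21 in control IVD, and its mean difference of 0.15 had a 95% interval of -1.01 to 1.32.

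In all, 16 of the 19 probe sets had higher means in mutant than in control IVD, with a median difference of 0.26 against 0.05 over all probe sets. As gene means, 58.2% of all genes were higher. An unadjusted p under 0.05 was found for 5 of 19 (26.3%), all higher in the mutant, where all probe sets gave 3.13%. At an adjusted p under 0.05 limma called none of them and 0% of all probe sets.

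**Figure D3:**
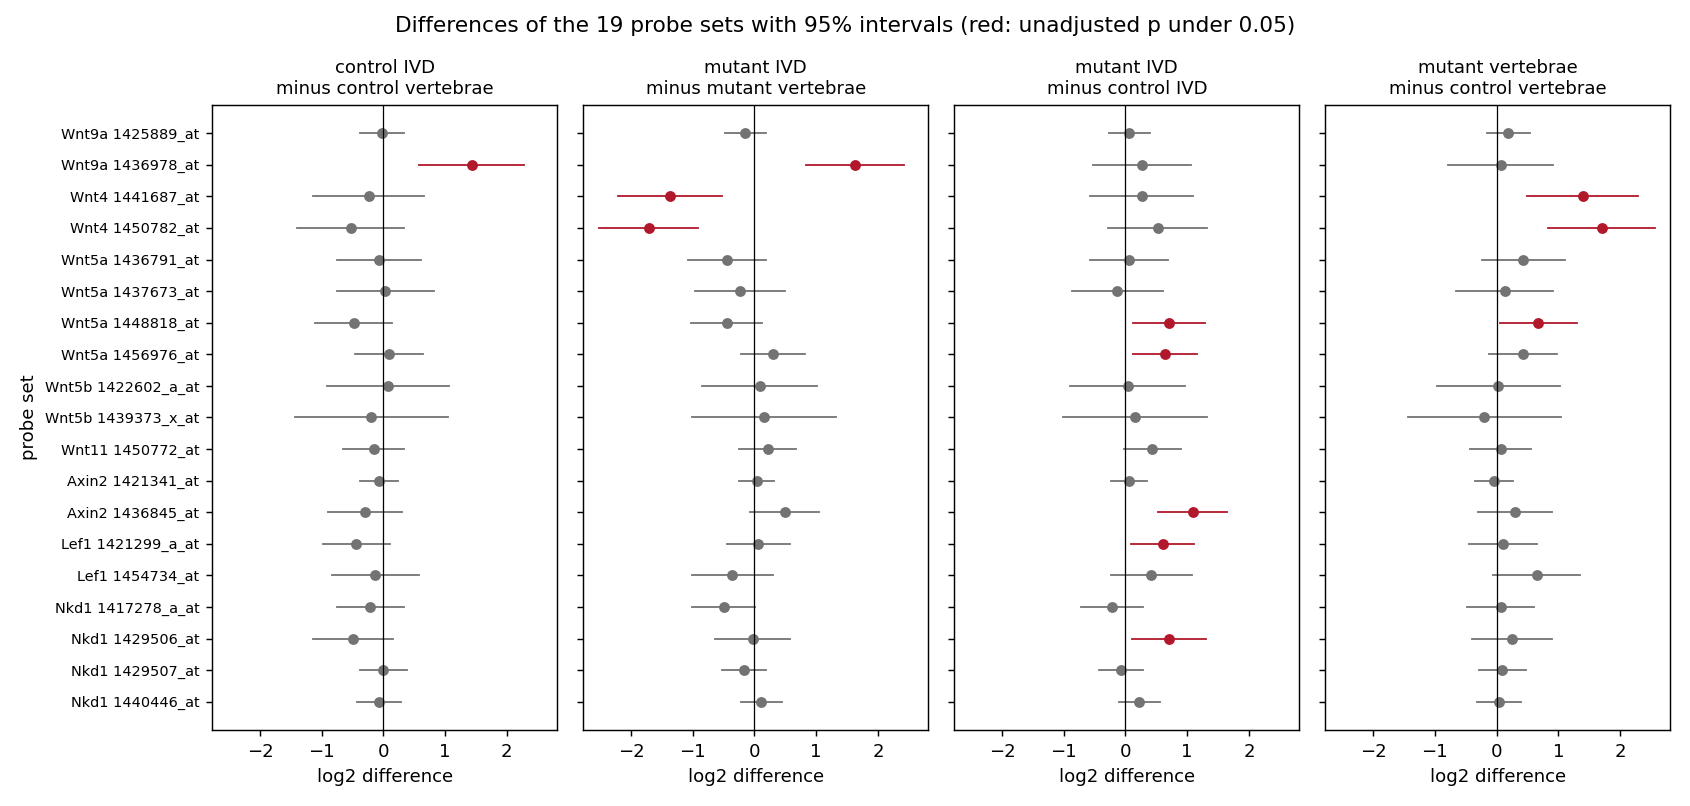
Log2 differences (x axis) of all 19 probe sets (rows) with 95% intervals in 4 comparisons, control IVD minus control vertebrae, mutant IVD minus mutant vertebrae, mutant IVD minus control IVD and mutant vertebrae minus control vertebrae. Red marks an unadjusted limma p under 0.05, found for 1, 3, 5 and 3 probe sets. Wnt9a 1436978_at lies to the right in both tissue comparisons (1.43 and 1.64), and both Wnt4 probe sets lie to the right in mutant vertebrae (1.40 and 1.70).

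In the vertebrae, of these genes, Wnt4 had the largest difference between genotypes. Wnt4 1450782_at was -0.12, 0.07 and 0.00 in control vertebrae and 1.66, 0.82 and 2.57 in mutant vertebrae. All 3 mutant vertebrae values were above those of the other 10 arrays, of which the highest was 0.48. The group means were -0.02 ± 0.10 and 1.68 ± 0.88 (SD, n = 3 each). The difference was 1.70 (SE 0.40, 95% interval 0.84 to 2.56) and did not pass limma's test (adjusted p = 0.998). The second Wnt4 probe set, 1441687_at, was -0.34, 0.27 and 0.00 in control vertebrae and 0.28, 1.47 and 2.36 in mutant vertebrae and differed by 1.40 (SE 0.41). The 2 probe sets followed each other (r = 0.84 over 13 arrays).

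The size of the Wnt4 difference rested partly on mutant vertebrae 3, whose value was 2.57. Without it the difference was 1.26 for 1450782_at and 0.90 for 1441687_at, the latter a reduction by more than 1.5 times. That array also had the highest epithelial mean, 1.11 over 8 genes, and the highest notochord mean, 0.86 over 6 genes, whose part in the Wnt4 values was not tested. Mutant vertebrae 1 and 2, with epithelial means of 0.18 and -0.25, had Wnt4 1450782_at values of 1.66 and 0.82. Both lay above all control arrays, and the 3 mutant vertebrae arrays had the same order in this probe set as in the epithelial mean. In 1441687_at the order was another, with 0.28, 1.47 and 2.36 in mutant vertebrae 1, 2 and 3. Over the 13 arrays Wnt4 1450782_at had r = 0.51 with the epithelial and 0.02 with the notochord mean. Mutant vertebrae 3 had the Y-linked mean of the control arrays, and fitting the Y-linked mean alongside gave a difference of 2.31. That fit rests on mutant vertebrae 3 and mutant IVD 3 and cannot separate sex from genotype.

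Wnt4 had a tissue difference in the opposite direction to Wnt9a. Mutant IVD values of 1450782_at were 0.48, -0.65, 0.28 and -0.23, all below mutant vertebrae, and the mutant tissue difference was -1.72 (SE 0.37, limma adjusted p = 0.20). In control embryos it was -0.53 (SE 0.40), with IVD values of -0.24, -0.89 and -0.52. The change of this tissue difference between genotypes was -1.18 (SE 0.54, 95% interval -2.36 to -0.0039) and did not pass limma's test (adjusted p = 1). Without mutant vertebrae 3 it was -0.74, a reduction by more than 1.5 times, and its interval included 0 in 9 of the 13 fits that left out 1 array. Of the 19 probe sets this was the only one with an unadjusted p under 0.05 (5.26%, against 1.37% of all probe sets), and 0% of all probe sets passed adjustment.

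Wnt5a 1448818_at was the third probe set that separated mutant from control vertebrae. It was -0.29, -0.10 and 0.24 in control vertebrae and 0.49, 0.85 and 0.55 in mutant vertebrae, a difference of 0.68 (SE 0.29, 95% interval 0.06 to 1.30, limma adjusted p = 0.998), close to that in IVD. Averaged over both tissues the difference was 0.69 (SE 0.20, 95% interval 0.27 to 1.12), in a fit that takes control arrays from the same mice as independent. The value in mutant IVD 3 of -0.39 lay among the controls, while that in mutant vertebrae 3 of 0.55 lay above every control array. Both arrays had a Y-linked mean like the controls. Over the 13 arrays this probe set had r = 0.665 with the Y-linked mean. The average was 0.34 when the Y-linked mean was fitted alongside. That fit rests on mutant IVD 3 and mutant vertebrae 3 and cannot separate sex from genotype.

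In the vertebrae no response gene separated mutant from control arrays. Axin2 1436845_at was -0.12, 0.00 and -0.30 in control vertebrae and -0.46, 0.39 and 0.55 in mutant vertebrae, a difference of 0.30 (SE 0.27, 95% interval -0.30 to 0.90). Mutant vertebrae 1 was below all controls of the tissue and the other 2 were above. Without mutant vertebrae 1 the difference was 0.61, and without mutant vertebrae 3 it was 0.11. Mutant vertebrae 1 had the largest spread over all probe sets, with an SD of 0.743 against 0.334 to 0.524 in the other 12. The genotype effect on Axin2 in IVD exceeded that in vertebrae by 0.79 (SE 0.38, 95% interval -0.03 to 1.60, limma adjusted p = 1), and by 0.48 without mutant vertebrae 1, so a difference between the tissues was not established.

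Nkd1 1429506_at had the same order as Axin2 in the mutant vertebrae, at -0.54, 0.43 and 0.56. In the control vertebrae it was -0.42, 0.41 and -0.27, another order than in Axin2. The Nkd1 difference was 0.25 (SE 0.30), or 0.59 without mutant vertebrae 1 and 0.04 without mutant vertebrae 3. Lef1 1454734_at was -0.94, -0.11 and 0.24 in control vertebrae and 0.13, 0.52 and 0.49 in mutant vertebrae, a difference of 0.65 (SE 0.32, 95% interval -0.05 to 1.35). Wnt5b 1439373_x_at again spread widely, from -1.23 to 1.05 in mutant vertebrae, and its difference was -0.20 (SE 0.57).

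Non-overlap of mutant and control vertebrae was found for 3 of 19 probe sets, both of Wnt4 and 1 of Wnt5a, and for 5.56% of all probe sets. The same 3 had an unadjusted p under 0.05 (15.8%, against 2.61% of all probe sets). At an adjusted p under 0.05 limma called none of them and 0% of all probe sets. The median difference of the members was 0.13, against 0.05 over all probe sets.

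Averaged over both tissues, 17 of the 19 probe sets had higher means in mutant embryos, where 60% of all genes were higher as gene means. With quantile normalization 14 of the 19 were higher, and the median over all probe sets went from 0.06 to 0.004. The 19 probe sets measure 8 genes and are not independent. An unadjusted p under 0.05 was found for 7 of the 19 (36.8%, against 4.38% of all probe sets), all higher in the mutant and of Axin2, Lef1, Nkd1, Wnt4 and Wnt5a. Axin2 1436845_at differed by 0.70 (SE 0.19, 95% interval 0.29 to 1.10, limma adjusted p = 0.87) and Wnt4 1450782_at by 1.11 (SE 0.27, 95% interval 0.52 to 1.70, limma adjusted p = 0.78). This fit takes all arrays as independent, although control IVD and vertebrae came from the same mice. The SEs, intervals and counts of this average may therefore be too favourable. limma called none of the members and 0% of all probe sets at an adjusted p under 0.05. No member separated all 7 mutant from all 6 control arrays, nor did more than 0.091% of all probe sets.

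Between the mutant tissues, 3 of 19 probe sets did not overlap, Wnt9a higher and both of Wnt4 lower in IVD, against 6.63% of all probe sets. The same 3 had an unadjusted p under 0.05 (15.8%, against 8.07% of all probe sets). limma called none of them and 0.0155% of all probe sets at an adjusted p under 0.05. Over both genotypes 4 of 19 probe sets had an unadjusted p under 0.05 in the tissue comparison (21.1%, against 8.37% of all probe sets), Wnt9a higher and Wnt4 (2 probe sets) and Wnt5a lower in IVD. limma called none of them at an adjusted p under 0.05, and 0.104% of all probe sets passed.

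The other genes of the pathway were compared by role, as the mean of all probe sets of a gene, over 93 measured genes in 9 lists. In control tissue an unadjusted p under 0.05 was found for 5 genes that were higher and 3 that were lower in IVD, against 2.68% of all 18193 genes. Fzd8, a Frizzled receptor, had the largest difference among 17 receptors and co-receptors, with values of 1.33, 1.81 and 0.96 in control IVD and of -0.44, -0.37 and -0.79 in control vertebrae. It differed by 1.90 (SE 0.52). Wif1, a secreted protein that binds Wnt ligands, differed by 2.97 (SE 1.31), with 1.89, 2.48 and 1.35 in IVD and -0.67, -0.44 and -2.06 in vertebrae.

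Notum, a secreted enzyme that inactivates Wnt proteins and is itself a Wnt target, differed by 1.30 (SE 0.39). For these 3 genes all control IVD values were above all control vertebrae values, the same direction as for Wnt9a. The 12 other response genes as a list had a median of -0.00, with 6 of 12 higher in IVD. Notum and Ccn4, at 1.42 (SE 0.71), were among the higher. The mean of this list was 0.15, 0.21 and -0.02 in control IVD and -0.09, -0.13 and -0.26 in control vertebrae. The 14 other ligands had a median of -0.03 with 3 of 14 higher in IVD, beside -0.01 over all genes. limma called none of the 93 in control tissue.

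In mutant against control IVD, an unadjusted p under 0.05 was found for 9 of the 93 genes that were higher and 1 that was lower, against 3.01% of all genes. The nuclear factors held 3 of them among 11 genes, all higher in the mutant. They were Bcl9, a β-catenin co-activator (0.61, SE 0.18), and the co-repressors Tle2 (0.94, SE 0.32) and Tle3 (0.71, SE 0.25). Bcl9 was -0.51, -0.53 and -0.47 in control IVD and 0.25, -0.41, 0.14 and 0.45 in mutant IVD, without overlap.

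Planar polarity genes held another 3 of 9, Prickle2 (0.95, SE 0.33), Vangl2 (0.40, SE 0.15) and Ptk7 (0.41, SE 0.17). The secreted inhibitor Sfrp5 was the gene with a lower value, at -0.17, 1.60 and 1.13 in control IVD and between -0.52 and -0.01 in mutant IVD, where control IVD 1 overlapped. Of the 12 secreted inhibitors, Sostdc1 (0.69, SE 0.27) and Sfrp1 (0.52, SE 0.23) were higher in the mutant with such a p. All 14 other ligands had means higher in the mutant, none with an unadjusted p under 0.05, and their median was 0.11 beside 0.04 over all genes. The 12 other response genes held none with such a p and had a median of 0.06. Over the 93 genes 69.9% had higher means in mutant IVD, against 58.2% of all genes.

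In mutant against control vertebrae 3 of the 93 genes had an unadjusted p under 0.05, all higher in the mutant, namely Bcl9, Ctnnbip1 and Prickle1, against 2.52% of all genes. The median of the 93 was 0.06 beside 0.03 over all genes. Averaged over both tissues, 9 of the 93 were higher and 1 lower with such a p, against 4.25% of all genes. Here too, control arrays from the same mice were taken as independent. In this average Bcl9 had the smallest p of the 93, with a difference of 0.52 (SE 0.13, limma adjusted p = 0.91). Between the mutant tissues 13 were higher and 5 lower in IVD, against 8.09% of all genes. Frzb, a secreted Wnt antagonist of cartilage, had a mutant IVD minus vertebrae difference of -1.18 (SE 0.24, limma adjusted p = 0.12), with no overlap between -0.82 to -0.31 in IVD and 0.28 to 0.86 in vertebrae. limma called none of the 93 at an adjusted p under 0.05 in any of these comparisons.

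**Figure D4:**
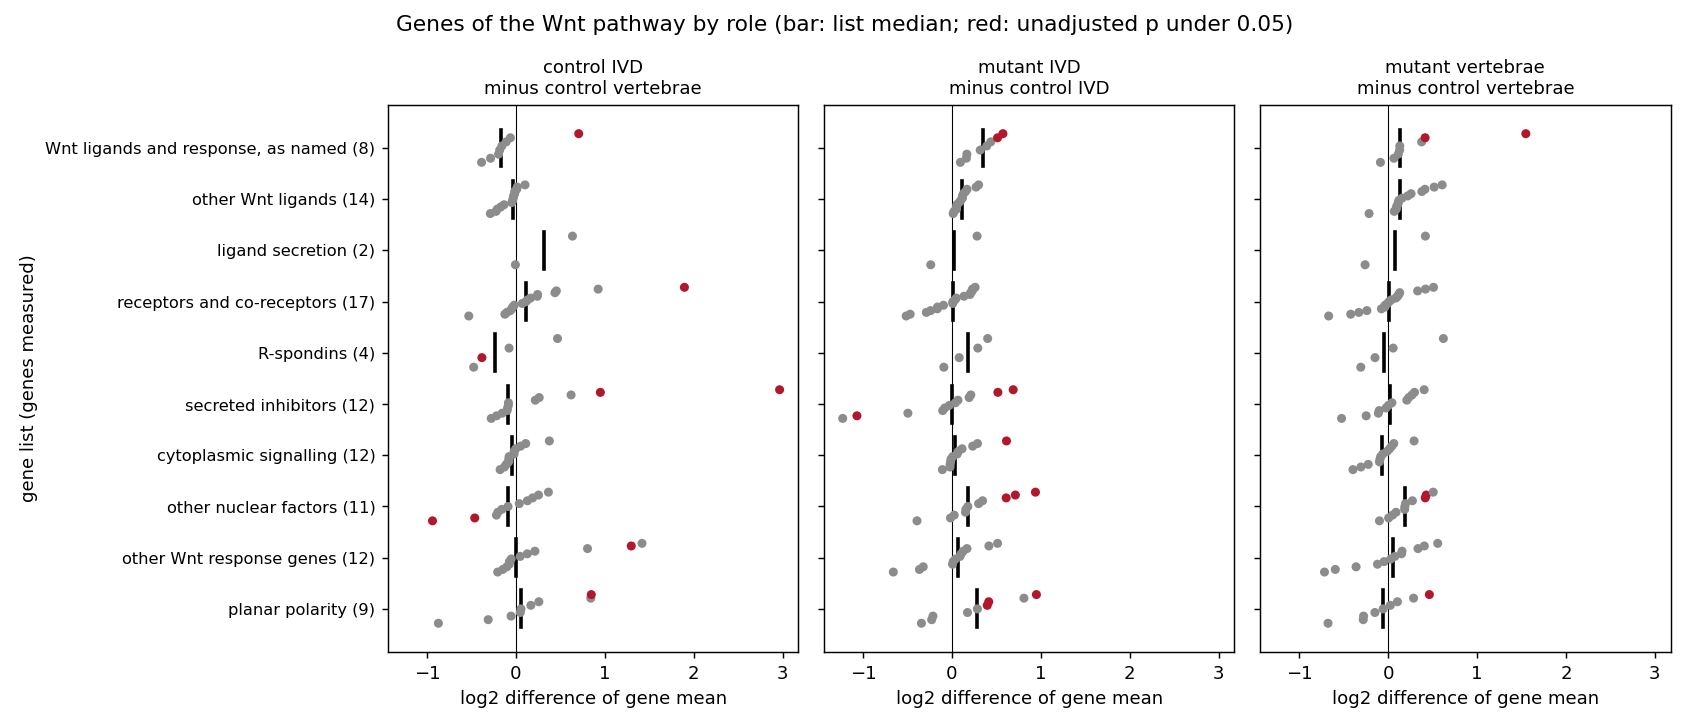
Log2 differences of gene means (x axis) for the Wnt genes described here and 9 lists of other pathway genes (rows, with the number of genes measured) in 3 comparisons, control IVD minus control vertebrae, mutant IVD minus control IVD and mutant vertebrae minus control vertebrae. Points are genes, red those with an unadjusted limma p under 0.05, and bars are list medians. The median of the 8 measured genes was -0.17, 0.35 and 0.13, and Wif1 and Fzd8 lie farthest right in control tissue (2.97 and 1.90).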

How the data were processed

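Values for 13 arrays (Affymetrix mouse genome arrays) from 50 ng of RNA each, amplified in 2 cycles, were used as deposited. The authors normalized with RMA in GeneSpring, and the deposited log2 values have a median of 0 over the arrays in every probe set. The annotation gave 34945 probe sets 1 gene symbol, 932 several and 9160 none, and 64 control probe sets were left out. Group means were fitted to 45037 probe sets with limma 3.58.1 in R 4.3.3 (lmFit, eBayes, two-sided, Benjamini-Hochberg over all probe sets), and again to the means of 18193 genes. Tables were made in Python 3.11.15 with pandas 2.3.3. The fit was also run on simulated data. Noise there was independent between arrays, so that run does not check the fit for control tissues from the same mice. Unless stated, a probe set described in full is the one of its gene with the largest SD over the arrays, and those in the study's lists are the same ones. Up to 4 genes of each pathway list with the smallest p could be named. The second probe sets of Wnt4, Lef1 and Wnt5a were described after their values were seen. The members and the 22 lists (192 of 199 genes measured) were chosen with earlier results of these data known. By the series design, control IVD and vertebrae came from the same mice, and deviations from group means had r = 0.80, 0.57 and 0.57 between equal numbers. Equal numbers in the mutant had r = -0.40, 0.24 and -0.15 and were not taken as pairs. Replicates are labelled as biological.

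Alternatives were a fit of only the groups compared, the array number as a replicate block (fixed over all arrays, or fixed or random in the control arrays), quantile normalization, limma's variance trend and robust options, array weights, the test with unequal variances that the study's methods name, covariates (neuronal, liver or Y-linked means), leaving out the 4 arrays with a liver mean over 1, gene means, and each array left out.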

Additional observations from a re-analysis of the deposited data

Results flagged for a closer look

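Nkd1 1429506_at was flagged because 1 of the 4 mutant IVD arrays lay apart from the others. Mutant IVD 3 had 0.42 where the others had 0.00, 0.06 and 0.00, and the gap took up 0.869 of the whole range, above the 95% critical value of Dixon for 4 arrays. Chance flags about 1 in 20 such groups, and 11 probe sets were examined. That array had the highest neuronal mean, 3.51, whose part in this value was not tested. Without it the mutant difference in IVD was 0.61 in place of 0.71.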

How the results depend on the processing

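None of the 19 probe sets was called in any comparison, and this held under every alternative except in the comparison of the mutant tissues and in the tissue comparison averaged over both genotypes. Between mutant IVD and mutant vertebrae 1 was called with array weights (Wnt4 1441687_at), 1 with the neuronal covariate (Wnt9a), and 0 to 1 when an array was left out, the 1 being Wnt9a without mutant IVD 3. Over all 45037 probe sets the calls there were 55, 88 and 177, against 7 without these changes. On average over both genotypes the count was 2 with array weights, 1 with the neuronal covariate, 1 without the arrays with liver transcripts, and 0 to 1 when an array was left out, again without mutant IVD 3. Over all probe sets the calls were 306, 242, 96 and 350, against 47. With the replicate block, 0 were called in any comparison, and the control difference of Wnt9a kept its value of 1.43, with a limma adjusted p of 0.147 for the random and 0.179 for the fixed replicate block in the control arrays. Of 36 reported differences 31 kept their sign in all alternatives run. The others were 3 of Wnt9a and 2 of Wnt5b, each with an interval that includes 0. For the genotype difference of Wnt9a in IVD it was -0.10 with the Y-linked covariate. In vertebrae it was -0.28 with the neuronal and -0.25 with the Y-linked covariate, and -0.17 to 0.29 when an array was left out. Its change between tissues was -0.10 with quantile normalization, -0.25 with array weights and -0.017 to 0.52 when an array was left out. For Wnt5b the genotype difference in IVD was -0.11 with the fixed replicate block, -0.70 with the Y-linked covariate and -0.11 to 0.43 when an array was left out, and that in vertebrae was -0.75 to 0.39. None of 40 list medians moved by more than 1 SD when an array was left out. That SD was the median SD within a group of the genes of the list, averaged over groups. It describes single genes, so this does not check smaller shifts of a list median. The causes were not tested. Signal over background is unknown from centred values.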
